A study of Drosophila melanogaster with 9 samples.

Results

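The proteasome subunit genes of Drosophila melanogaster were followed in RNA from ovaries of 2 mutants and a control strain. Members were all genes whose symbol is Prosalpha, Prosbeta, Rpn or Rpt followed by a number, which gave 48 of the 17559 genes in the count tables. Of these, 32 are the canonical subunits, 14 of the core particle and 18 of the regulatory particle. The other 16 carry a T or an R after the number, a naming used for paralogs described mainly from testis, and are kept apart here.

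The proteasome degrades proteins that are tagged with ubiquitin. Its core particle is a barrel whose outer rings of alpha subunits gate the entrance and whose inner rings of beta subunits hold the proteolytic sites. The regulatory particle caps the barrel: its base binds ubiquitin, unfolds the substrate with a ring of ATPases and feeds it into the core, and its lid removes the ubiquitin chain. In fly oogenesis, nurse cells make much of the RNA and protein that the egg carries into early development.

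The series compared ovary transcripts of flies mutant for DPLG1, of flies mutant for DPLG4, and of control flies of the w1118 strain, with 3 libraries of total RNA in each group. DPLG1 and DPLG4 are genes derived from PIF transposases, and the sample titles mark both mutants as knockouts. The libraries are biological replicates per the labels. How the mutant alleles were made, how many flies were pooled, their age and their genetic background beyond these labels are not stated in the sources at hand.

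Gene counts per library ranged from 18078883 to 95751320. Levels are given in CPM, a gene's count relative to the library size after TMM scaling in edgeR, and the floor of 3 counts was 0.0311 to 0.172 CPM. DPLG1 is CG12253, which was at 54.0 to 69.4 CPM in controls and at 0 to 0.0222 CPM in its own mutant. DPLG4 is CG7492, at 115 to 167 CPM in controls and 1.52 to 1.68 CPM in its own mutant. Control replicate 1 stood apart because 72.0% of its total lay outside gene counts, against 11.5% to 13.8% in the other 8 libraries. Libraries also differed in a trend with exon length: Spearman's rho between a gene's exon length and its deviation from the 9-library mean, over 8248 genes, ran from -0.50 in DPLG4 mutant replicate 15 to 0.59 in control replicate 2. The 4 germline markers matched in the files summed to 1602.5 to 2055 CPM over all libraries, and none of the 4 was at 0. The 10 follicle cell markers, most of them eggshell genes, summed to 452 to 982 CPM in controls, 1059 to 2186 CPM in DPLG1 mutants and 1668 to 2782 CPM in DPLG4 mutants. The 5 gut markers summed to at most 0.0643 CPM in controls, but to 33.7 CPM in DPLG1 mutant replicate 7, 24.5 CPM in DPLG4 mutant replicate 3 and 6.63 CPM in DPLG4 mutant replicate 15, with the other mutant libraries at 0.0197 to 0.326 CPM. The part of these marker differences in the results below was not tested. In such bulk RNA, fewer cells of a type and less RNA per cell cannot be told apart.

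Nearly every canonical subunit gene was highly expressed in the ovary, and the core particle genes lay above most of the regulatory particle genes. In controls, 31 canonical genes ranged from 100 to 396 CPM per kb of exon, with a median of 249.7. Their percentiles among the 8248 tested genes with a known exon length, by control CPM per kb, ran from 89.4 to 98.0 with a median of 96.7. Together the canonical genes took 0.930% to 1.02% of all gene counts in controls, 1.03% to 1.08% in DPLG1 mutants and 0.976% to 1.03% in DPLG4 mutants.

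**Figure D1:**
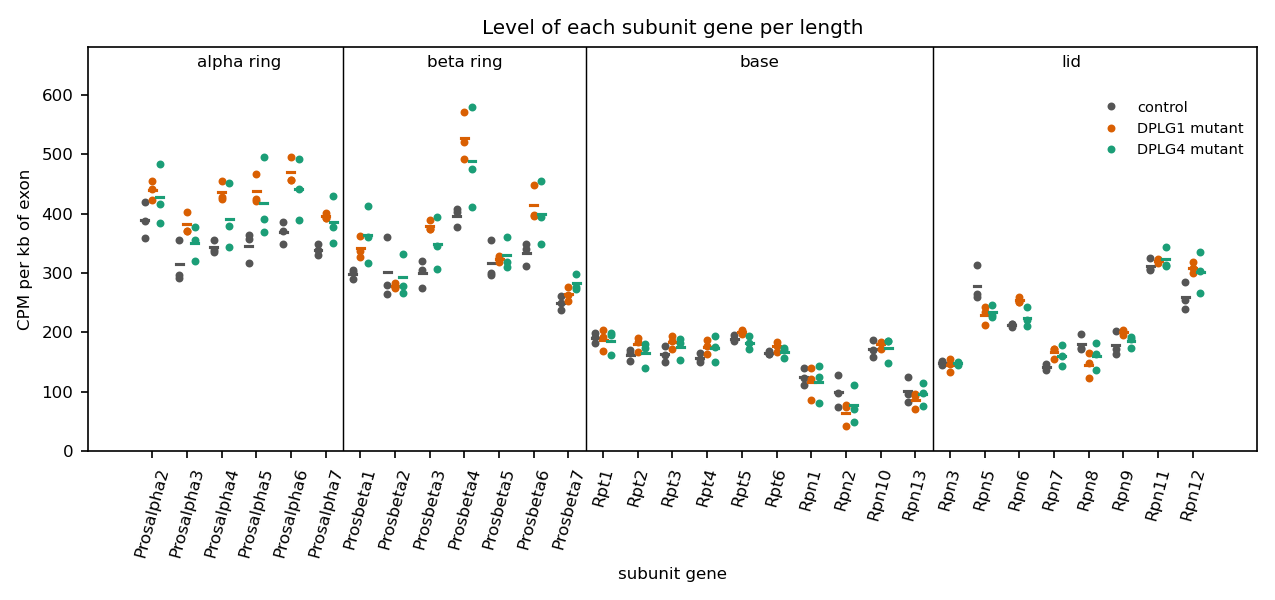
Level of each canonical subunit gene in CPM per kb of exon, by group, with points for the libraries and a dash for their mean. The core particle genes span 250 to 396 CPM per kb in controls and the regulatory particle genes 100 to 312 CPM per kb.

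The levels of the core genes also lay closer to each other. The 13 measured core genes spanned 249.7 to 396 CPM per kb in controls, a ratio of 1.59 and a coefficient of variation between genes of 12.1%. The 18 regulatory genes spanned 100 to 312 CPM per kb, a ratio of 3.12 and a coefficient of variation of 31.3%. By substructure, control medians were 344 CPM per kb for the alpha ring, 302 for the beta ring, 197 for the lid and 163 for the base. The measured core genes are short and alike, with 815 to 1215 exon bases, and the regulatory genes have 995 to 3412. The part of exon length in these contrasts of level and spread was not tested.

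Prosbeta4, a beta ring subunit without a proteolytic site, had the highest level in all 3 groups, at 396 ± 16.1 CPM per kb in controls (SD, n = 3). Prosalpha2 followed at 388 ± 29.8 and Prosalpha6 at 368 ± 18.4 CPM per kb, and these neighbours lay within their spread of each other. The lowest were Rpn2, one of the large scaffold proteins of the base, at 100 ± 26.9 CPM per kb, Rpn13, a ubiquitin receptor, at 102 ± 21.3, and Rpn1, the other large scaffold and also a ubiquitin receptor, at 125 ± 14.4. Rpn2, Rpn13 and Rpn1 kept this order at the bottom in both mutants. From highest to lowest, the range was 3.96-fold in controls, 8.12-fold in DPLG1 mutants and 6.26-fold in DPLG4 mutants. Prosbeta4 is the shortest measured member, with 815 exon bases, and Rpn2 and Rpn1 are the longest, with 3412 and 3041. The difference between these ratios, and the part of exon length in it, was not tested.

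The catalytic subunits were at similar levels in controls. Prosbeta1, which cuts after acidic residues, was at 299 ± 7.71 CPM per kb. Prosbeta2, which cuts after basic residues, was at 302 ± 51.7, and Prosbeta5, which cuts after large hydrophobic residues, at 317 ± 33.3 CPM per kb. Rpn11, the metalloprotease of the lid that removes ubiquitin chains, was the highest regulatory gene at 312 ± 11.4 CPM per kb.

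Subunit levels varied little over the 9 libraries. The coefficient of variation of a canonical gene's CPM over all libraries ran from 3.74% for Rpn11 to 33.8% for Rpn2, with a median of 9.60%. Over all tested genes the median was 16.9%, and over the 1299 tested genes at least as high in control CPM as the lowest subunit it was 13.4%.

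**Figure D2:**
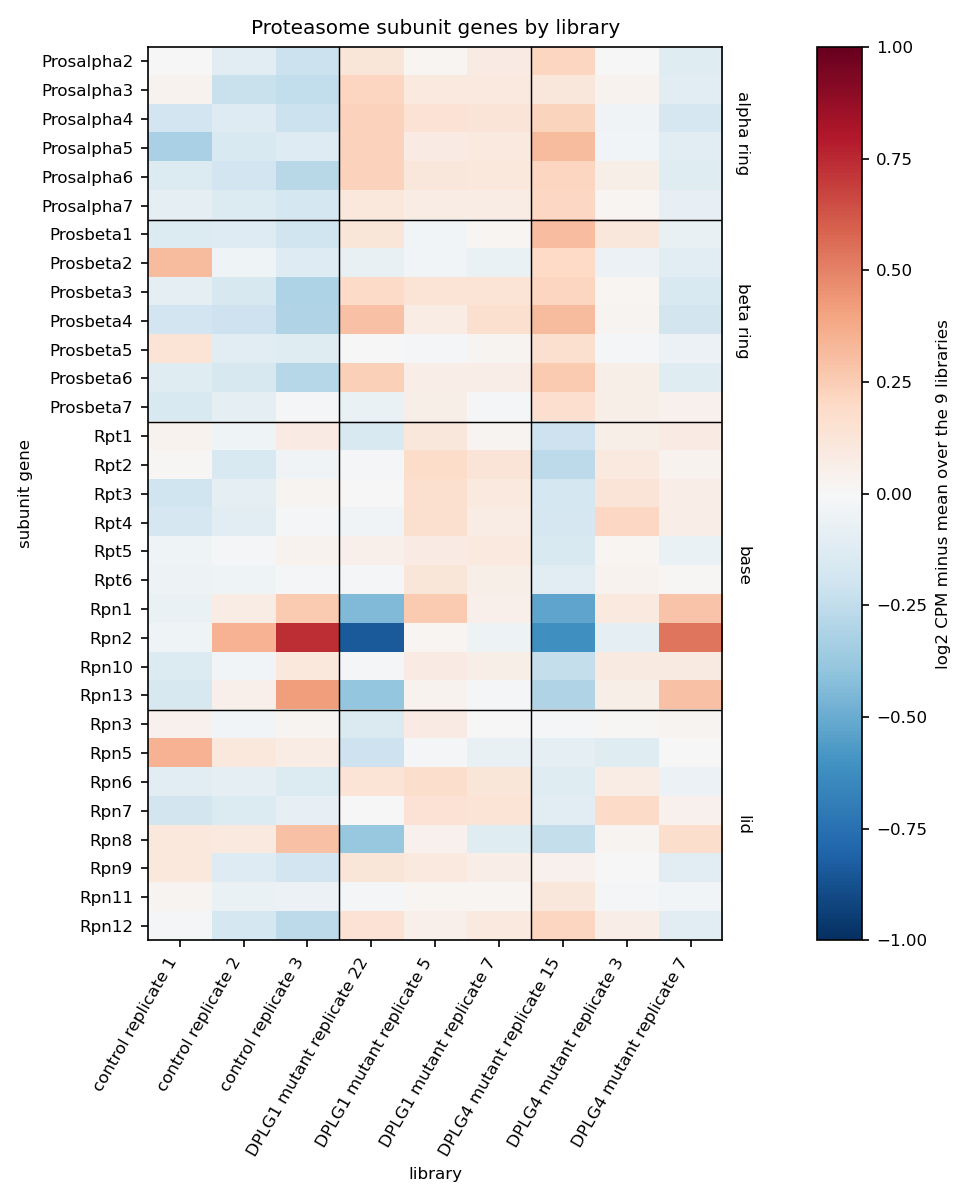
Deviation of each canonical subunit gene in each of the 9 libraries from its mean over the libraries, on a log2 scale, ordered by alpha ring, beta ring, base and lid. Rpn2 varies most over the libraries and Rpn11 least, and the base genes are low in DPLG4 mutant replicate 15.

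The exception was Prosalpha1, a subunit of the alpha ring, which had 0 counts in all 9 libraries. Its paralog Prosalpha1R also had 0 counts throughout. In the Ensembl annotation of the BDGP6 assembly they are neighbours on the minus strand of 2R, Prosalpha1 at 7827303 to 7828678 and Prosalpha1R at 7830413 to 7831771. Both have 4 exon blocks, of 112, 100, 177 and 580 bases from the 5′ end in Prosalpha1 and of 95, 100, 177 and 580 bases in Prosalpha1R, so that 3 of 4 have equal length. The deposited tables hold a summary line for reads that did not align to 1 place, and whether reads of this pair lie there was not tested. The level of Prosalpha1 is therefore not reported, and every statement on the core covers 13 of its 14 genes.

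Apart from Rpt3R, the paralogs had counts at or near 0 in the ovary. Of the 16, 9 had 0 counts in all 9 libraries. Prosalpha1R is among them, and its level is as unknown as that of Prosalpha1. A further 4 had 1 to 3 counts over all libraries together: Prosalpha4T2 with 1, Prosbeta2R1 with 3, Prosbeta5R2 with 1 and Rpt4R with 1. The remaining 3 reached at least 3 counts in a library, and only Rpt3R was abundant enough to be tested.

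Rpt3R, a paralog of the base ATPase Rpt3, is a protein-coding gene on 3R at 9754735 to 9756510, minus strand, and shares 20 exon bases with Alg12 on the other strand. It had 0.853, 1.51 and 2.23 CPM in control replicates 1, 2 and 3. The DPLG1 mutant replicates 22, 5 and 7 had 1.95, 1.63 and 2.38 CPM, and the DPLG4 mutant replicates 15, 3 and 7 had 3.12, 3.22 and 2.05 CPM. Mutant and control ranges overlapped. The log2 fold change was 0.88 (SE 0.35) for DPLG4 mutant against control, with an edgeR adjusted p of 0.432, and 0.39 (SE 0.35) for DPLG1 mutant against control, with an edgeR adjusted p of 0.538. DPLG1 mutant against DPLG4 mutant gave -0.50 (SE 0.34, edgeR adjusted p = 0.836). Per kb of exon, Rpt3 was 155 times as high as Rpt3R in controls, 134 times in DPLG1 mutants and 90.8 times in DPLG4 mutants.

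Rpt6R, a paralog of the base ATPase Rpt6, had 64 counts over the 9 libraries, a mean of 0.0926 CPM in controls, 0.102 in DPLG1 mutants and 0.139 in DPLG4 mutants. Prosbeta2R2, a paralog of the catalytic Prosbeta2, had 36 counts, with means of 0.0654, 0.0542 and 0.0679 CPM in the same order. Both lay near the floor of the shallower libraries and did not pass the filter, so differences between groups were not tested. Of 14 testis markers, 9 had 0 counts in every library, and 4 others had 1 to 3 counts in all. The remaining marker, mia, held 1415 counts and made up nearly all of the summed marker level, which was 1.82 to 2.22 CPM in controls, 2.09 to 3.43 in DPLG1 mutants and 2.32 to 3.22 in DPLG4 mutants.

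Loss of DPLG1 was compared with control first. None of the 31 canonical genes and not Rpt3R passed an adjusted p of 0.05 in edgeR's quasi-likelihood test, where 0.107% of all tested genes did. Most subunits nevertheless had values above control: 23 of 31 log2 fold changes were positive, with a median of 0.16, against 51.6% of all tested genes and a median of 0.0137. The core stood at 12 of 13 positive with a median of 0.28, and the regulatory particle at 11 of 18 with a median of 0.0737. At an unadjusted p under 0.05, 11 canonical genes were higher and 1 was lower, where 7.13% and 9.85% of all tested genes were. The DPLG1 mutant libraries all lay above the controls for 14 canonical genes, where 15.8% of all tested genes did so, and all below for 2, Rpn5 and Rpn8, where 13.9% did.

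Exon length and library moved with these values. Core genes have 815 to 1215 exon bases (median 973) and regulatory genes 995 to 3412 (median 1589). Across the 31 genes, which share the same libraries, Spearman's rho between exon length and log2 fold change was -0.65 for DPLG1 mutant against control and -0.80 for DPLG4 mutant against control. Removing the length trend of each library left rho at -0.45 and -0.60, so the values given with it removed still went with length. With the length trend of each library removed, the medians for DPLG1 mutant against control were 0.0513 for the canonical genes, 0.15 for the core and 0.0080 for the regulatory particle. Then 20 of 31 canonical genes were positive, where 53.5% of all tested genes were. The part of the length trend in the values above control was not tested further. Without control replicate 1, the canonical median was 0.15 and the core median 0.30. The median over all tested genes was then 0.0722, against 0.0137 with all libraries.

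**Figure D3:**
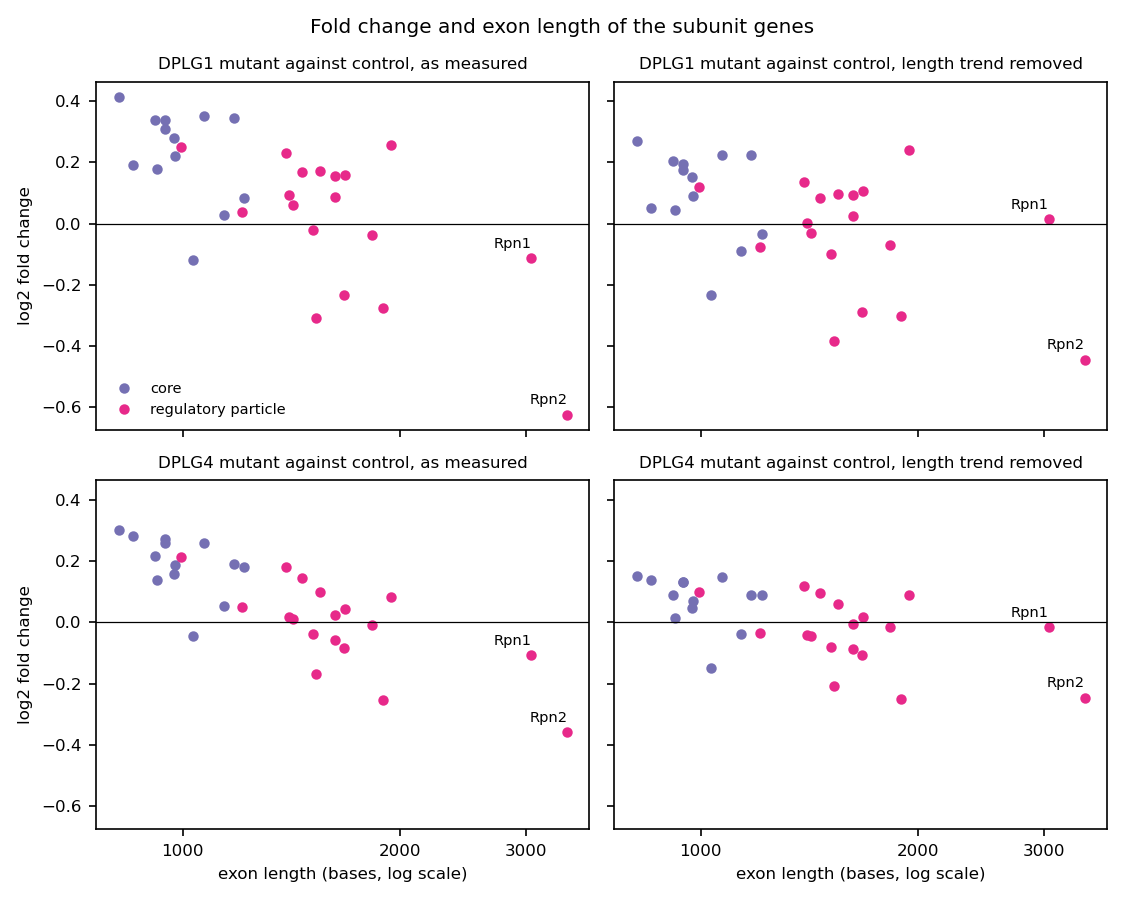
Log2 fold change of each of the 31 canonical genes (points, coloured by particle) against its exon length in bases on a log scale, for each mutant against control, as measured and with the length trend removed. As measured, the long genes Rpn1 and Rpn2 lie below 0 and 12 of 13 core genes, of 815 to 1215 bases, lie above it. The spread along length is smaller with the trend removed, but Spearman's rho is still -0.45 for DPLG1 and -0.60 for DPLG4.

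All 6 measured alpha ring genes, which share the same libraries, were positive in DPLG1 mutants, with a median log2 fold change of 0.31. Over all tested genes 51.6% were positive. In each of these alpha ring genes the mutant libraries lay above all controls, where 15.8% of all tested genes did so. Prosalpha6 (2L, 10221351 to 10222546, plus strand) had 413, 397 and 373 CPM in control replicates 1, 2 and 3, and 530, 489 and 488 CPM for replicates 22, 5 and 7 of the DPLG1 mutant. All later values keep these orders of libraries. Every mutant library was above every control. Prosalpha6 had a log2 fold change of 0.35 (SE 0.10, edgeR adjusted p = 0.269), or 0.22 with the length trend removed. It was the 1 subunit gene called by DESeq2, with an adjusted p of 0.0432, where DESeq2 called 3.32% of all tested genes. Prosalpha6 lies 0.765 Mb from CG12253, the mutated gene, on the same chromosome arm, and other differences linked to the mutation cannot be told apart from it.

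Prosalpha4 had 536, 504 and 499 CPM in DPLG1 mutants and 399, 418 and 394 CPM in controls. These groups did not overlap, with a log2 fold change of 0.35 (SE 0.11, edgeR adjusted p = 0.276). Prosalpha2, the highest alpha gene in controls per kb, had 418, 389 and 405 CPM in DPLG1 mutants and 385, 356 and 331 CPM in controls. Its lowest mutant library lay just above its highest control, and its log2 fold change was 0.18 (SE 0.11, edgeR adjusted p = 0.370). With the length trend removed, Prosalpha4 was at 0.22 and Prosalpha2 at 0.0449.

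In the beta ring, 6 of 7 genes were positive, with a median log2 fold change of 0.19, where 51.6% of all tested genes were positive. After removal of the length trend 4 of 7 were positive, with a median of 0.0513. The alpha ring was then still at 6 of 6, with a median of 0.17, where 53.5% of all tested genes were positive. Prosbeta4 (2L, 16731180 to 16732133, minus strand) had the largest value of any subunit. It had 465, 400.3 and 424 CPM in DPLG1 mutants and 333, 328 and 308 CPM in controls, a log2 fold change of 0.41 (SE 0.13, edgeR adjusted p = 0.276). The groups did not overlap, and the log2 fold change was 0.27 with the length trend removed.

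The catalytic subunits lay on both sides of 0. Prosbeta1 had 309, 278 and 287 CPM in DPLG1 mutants and 258, 259.5 and 247 CPM in controls, without overlap, and a log2 fold change of 0.19 (SE 0.11, edgeR adjusted p = 0.346). Prosbeta2 had 284, 294 and 286 CPM in DPLG1 mutants and 373, 289.9 and 274 CPM in controls. Control replicate 1 was the highest of these, the groups overlapped, and the log2 fold change was -0.12 (SE 0.13, edgeR adjusted p = 0.624), or 0.0470 without that library. The median over all tested genes was 0.0722 without that library. Prosbeta5 had 369.7, 362 and 374 CPM in DPLG1 mutants and 405, 341 and 338 CPM in controls, with overlap and a log2 fold change of 0.0282 (SE 0.10, edgeR adjusted p = 0.888). With the length trend removed, Prosbeta1 was at 0.0513, Prosbeta2 at -0.23 and Prosbeta5 at -0.0880.

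**Figure D4:**
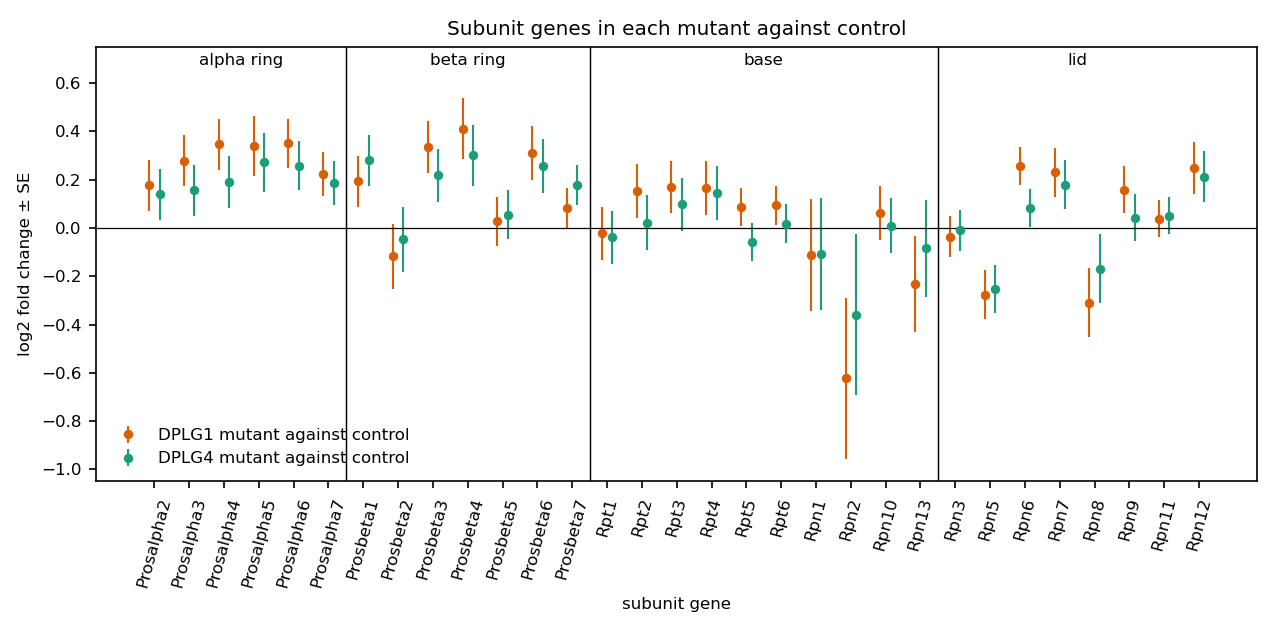
Log2 fold change with its standard error for the canonical subunit genes in each mutant against control, from the edgeR fit to 9 libraries. Core genes lie mostly above 0 in both mutants, and the genes farthest below 0 are Rpn2, Rpn8 and Rpn5.

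The base was split by role. Of the 6 ATPase genes Rpt1 to Rpt6, 5 were positive in DPLG1 mutants, with a median log2 fold change of 0.12. Of Rpn1, Rpn2, Rpn10 and Rpn13, 1 of 4 was positive, with a median of -0.17. Over all tested genes 51.6% were positive. Rpt5, an ATPase, had 322, 328 and 332 CPM in DPLG1 mutants and 301, 307 and 318 CPM in controls, narrowly without overlap, and a log2 fold change of 0.0856 (SE 0.0784, edgeR adjusted p = 0.540).

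Rpn2 had the most negative value of any subunit. It had 146, 265 and 254 CPM in DPLG1 mutants and 254, 333 and 437 CPM in controls. The spread within both groups was wide, the ranges overlapped, and the log2 fold change was -0.62 (SE 0.33, edgeR adjusted p = 0.339). Rpn1 had 263, 427 and 369 CPM in DPLG1 mutants and 340.4, 376 and 428 CPM in controls, with overlap and a log2 fold change of -0.11 (SE 0.23, edgeR adjusted p = 0.801). Without DPLG1 mutant replicate 22, Rpn2 was at -0.40 and Rpn1 at 0.0616, and without control replicate 3 Rpn2 was at -0.41. Rpn2 and Rpn1 are the longest members, with 3412 and 3041 exon bases, and for both genes the 2 lowest libraries were DPLG1 mutant replicate 22 and DPLG4 mutant replicate 15, the libraries with the most negative length trends.

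Of the ubiquitin receptors, Rpn13 had 119.98, 161 and 155 CPM in DPLG1 mutants and 140.4, 162 and 209.98 CPM in controls, a log2 fold change of -0.23 (SE 0.20, edgeR adjusted p = 0.516). Rpn10 had 246, 262.5 and 259 CPM in DPLG1 mutants and 226, 243 and 267 CPM in controls, a log2 fold change of 0.0618 (SE 0.11, edgeR adjusted p = 0.770). Both pairs of groups overlapped, and Rpn13 was at -0.0643 without control replicate 3.

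In the lid, 5 of 8 genes were positive with a median log2 fold change of 0.0991, where 51.6% of all tested genes were positive. The members lay on both sides of 0. Rpn6, a clamp that holds the regulatory particle to the core, had 490.3, 505 and 487 CPM in DPLG1 mutants and 416, 417 and 407 CPM in controls. The groups did not overlap and the spread was narrow, with a log2 fold change of 0.26 (SE 0.0795, edgeR adjusted p = 0.276). Rpn5, another scaffold of the lid, had 404, 462 and 444 CPM in DPLG1 mutants and 594, 501 and 491 CPM in controls. It was below control without overlap, by a log2 fold change of -0.28 (SE 0.10, edgeR adjusted p = 0.276). Rpn8, the partner of Rpn11, was at -0.31 (SE 0.14, edgeR adjusted p = 0.300). Rpn11 itself had 383, 389 and 389.98 CPM in DPLG1 mutants and 393, 368 and 369.8 CPM in controls, a log2 fold change of 0.0388 (SE 0.0777, edgeR adjusted p = 0.793).

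Loss of DPLG4 was compared with the same 3 controls. No canonical gene was called in edgeR, where 0.427% of all tested genes were, or in DESeq2, where 2.71% were. Of the log2 fold changes, 22 of 31 were positive with a median of 0.0822, against 48.9% and a median of -0.0072 over all tested genes. The core was positive in 12 of 13 genes, with a median of 0.19, and the regulatory particle in 10 of 18, with a median of 0.0133. At an unadjusted p under 0.05, 4 canonical genes were higher and 1, Rpn5, was lower, where 7.32% and 3.45% of all tested genes were. The groups did not overlap for 6 canonical genes that were higher, all in the core, where 9.48% of all tested genes did so, and for 1 that was lower, Rpn5, where 6.79% did.

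Single libraries weighed on these medians. The core median was 0.12 without DPLG4 mutant replicate 15 and 0.28 without replicate 7. The regulatory median turned negative, at -0.0282, without DPLG4 mutant replicate 3, at -0.0124 without replicate 7 and at -0.0023 without control replicate 2. Its values were 0.0579 without DPLG4 mutant replicate 15, 0.0207 without control replicate 1 and 0.0232 without control replicate 3. Over all canonical genes, leaving out DPLG4 mutant replicate 3 gave 0.0532 and leaving out control replicate 1 gave 0.13. The medians over all tested genes in these runs were -0.0052 and 0.0409. With the length trend removed, 17 of 31 canonical genes were positive, where 51.1% of all tested genes were. The core median was then 0.0882 and the regulatory median -0.0262.

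Prosbeta1 had the smallest p of the subunits in DPLG4 mutants. It had 351, 307 and 269.7 CPM in DPLG4 mutant replicates 15, 3 and 7, all above the controls given before, and a log2 fold change of 0.28 (SE 0.11, edgeR adjusted p = 0.422). Prosalpha6 had 526, 471 and 417 CPM in DPLG4 mutants, all above control, a log2 fold change of 0.26 (SE 0.10, edgeR adjusted p = 0.432). Prosbeta4 had 472, 387 and 335 CPM, the last just above the highest control, a log2 fold change of 0.30 (SE 0.13, edgeR adjusted p = 0.452). In each of these genes replicate 15 was the highest DPLG4 library and replicate 7 the lowest. With the length trend removed, Prosbeta1 was at 0.14, Prosalpha6 at 0.15 and Prosbeta4 at 0.15.

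Prosalpha4 had 531, 445 and 405 CPM in DPLG4 mutants, with overlap, and Prosalpha2 445, 383 and 353 CPM, also with overlap. Prosbeta2 had 344, 288 and 276 CPM and Prosbeta5 411.5, 362 and 353 CPM, both overlapping the controls. Log2 fold changes were 0.19 and 0.14 for the first pair and -0.0461 and 0.0545 for the second, with edgeR adjusted p from 0.560 to 0.887. With the length trend removed they were 0.0883 and 0.0142 for the first pair and -0.15 and -0.0397 for the second.

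The base genes Rpn2, Rpn1 and Rpn13 had the opposite order of libraries. Lid genes were mixed. Rpn9, Rpn11 and Rpn12 were highest in replicate 15 and lowest in replicate 7, and Rpn3 and Rpn8 were the reverse. Rpn5, Rpn6 and Rpn7 had neither order. Rpn2 had 172, 246 and 381 CPM in DPLG4 mutant replicates 15, 3 and 7, Rpn1 247, 381 and 434 CPM, and Rpn13 128, 163 and 192 CPM. Replicate 15 was lowest in all 3 genes and replicate 7 highest. Their log2 fold changes were -0.36, -0.11 and -0.0847, with edgeR adjusted p of 0.667, 0.844 and 0.857. These values rest on single libraries. Without DPLG4 mutant replicate 15 they were -0.12, 0.0969 and 0.0582, and without replicate 7 they were -0.70, -0.28 and -0.22. Without control replicate 3 they were -0.15, -0.0268 and 0.0812, and without control replicate 1 they were -0.52, -0.17 and -0.19. Leaving out DPLG4 mutant replicate 3 gave -0.31, -0.16 and -0.0970.

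Rpn5 had 436, 429 and 467 CPM in DPLG4 mutants, all below the controls, with a log2 fold change of -0.25 (SE 0.10, edgeR adjusted p = 0.432). Rpn6 had 412, 471 and 429 CPM, overlapping control, with a log2 fold change of 0.0822 (SE 0.0794, edgeR adjusted p = 0.674). Rpn10 had 211, 264 and 265 CPM, Rpn11 416, 379 and 377 CPM and Rpt5 279.5, 314 and 296 CPM, and all 3 overlapped control.

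The mutants were then compared directly. Among the canonical genes, 20 of 31 were higher in DPLG1 mutants, with a median log2 fold change of 0.0379, against 43.6% of all tested genes and a median of -0.0348. With the length trend removed 19 of 31 were positive, where 47.1% of all tested genes were. None was called in edgeR, where 0.629% of all tested genes were, or in DESeq2, where 2.73% were. None had an unadjusted p under 0.05, where 3.65% were higher and 3.89% lower. The groups did not overlap for 3 genes, all higher in DPLG1 mutants: Rpn6, Rpt5 and Rpn9, where 9.04% of all tested genes did so, and for none that was lower, where 6.46% did. Rpn6 had the largest value, 0.18 (SE 0.0794, edgeR adjusted p = 0.672), followed by Prosalpha4 at 0.16 (SE 0.11, edgeR adjusted p = 0.836) and Rpt5 at 0.14 (SE 0.0784, edgeR adjusted p = 0.780). Rpn2 was lowest at -0.26 (SE 0.33, edgeR adjusted p = 0.882). The core median of 0.0526 became -0.0249 without DPLG4 mutant replicate 7 and 0.16 without replicate 15, and the regulatory median of 0.0289 became -0.0297 without replicate 15.

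The genes of each particle were then summed in each library. The core sum was 4464, 4248 and 4078 CPM in control replicates 1, 2 and 3. It was 5222, 4911 and 4946 CPM for replicates 22, 5 and 7 of the DPLG1 mutant, and 5486, 4751 and 4352 CPM for replicates 15, 3 and 7 of the DPLG4 mutant. As measured, DPLG1 mutants all lay above the controls, and DPLG4 mutant replicate 7 lay among them. The regulatory sum was 5273, 5209 and 5548 CPM in controls, 4956, 5669 and 5447 CPM in DPLG1 mutants and 4787, 5450 and 5540 CPM in DPLG4 mutants. These groups overlapped.

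**Figure D5:**
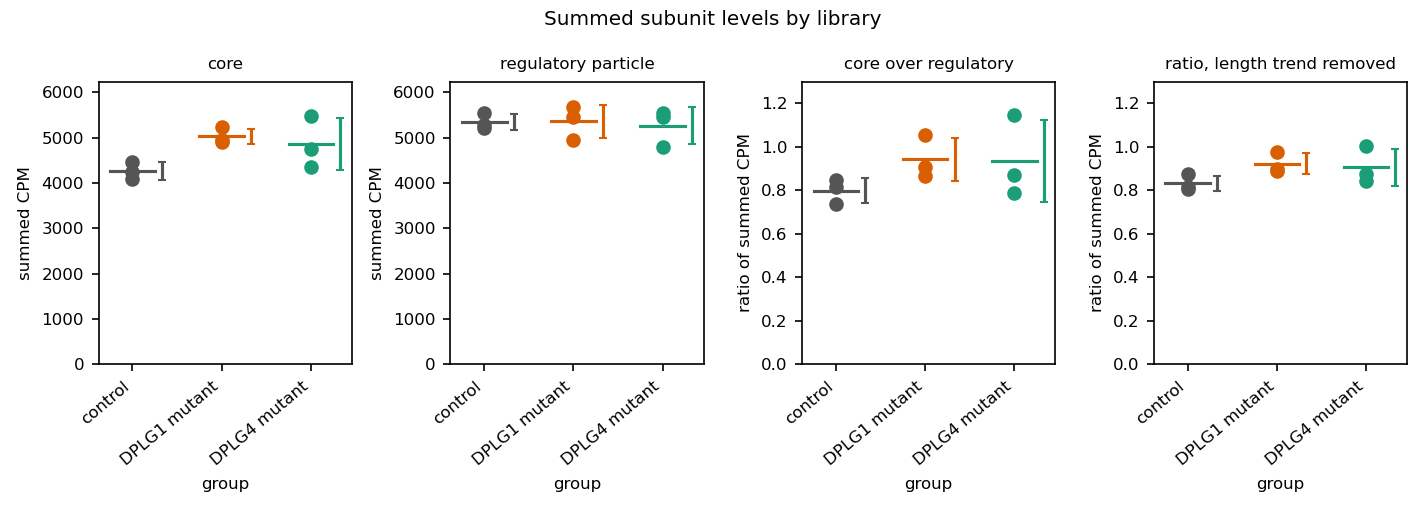
Summed CPM of the core and of the regulatory particle genes in each library, with the ratio of core to regulatory sums, before and after the length trend was removed. Points are libraries, lines their mean and bars ± SD. Core sums lie at 4911 to 5222 CPM in DPLG1 mutants and 4078 to 4464 CPM in controls, and regulatory sums overlap between all groups.

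The ratio of core to regulatory sums was 1.05, 0.866 and 0.908 in DPLG1 mutants, 1.15, 0.872 and 0.786 in DPLG4 mutants and 0.847, 0.815 and 0.735 in controls. Its spread within DPLG4 mutants was wider than the difference between DPLG4 mutants and controls. With the length trend removed the ratio was 0.977, 0.889 and 0.900 in DPLG1 mutants, 1.002, 0.875 and 0.841 in DPLG4 mutants and 0.807, 0.873 and 0.816 in controls. DPLG1 mutants still lay above all controls, DPLG4 mutants overlapped them, and 3 libraries against 3 allow no exact two-sided permutation p below 0.10.

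Genes that act with the proteasome were taken in 3 lists, and none of their 28 tested genes was called in any comparison by edgeR or by DESeq2. At an unadjusted edgeR p under 0.05 were rngo, Uba1 and CSN5 for DPLG1 mutant against control, rngo for DPLG4 mutant against control, and ntc and Ubi-p63E for the direct comparison. Over all tested genes 7.13% were higher and 9.85% lower at that p in the first comparison, 7.32% and 3.45% in the second, and 3.65% and 3.89% in the third. The first list held 12 genes of assembly, activation, inhibition and transcription. It had 8 positive of 12 in DPLG1 mutants against control (median 0.0941), 5 in DPLG4 mutants (median -0.0553) and 10 in the direct comparison (median 0.0686). The shares of positive values over all tested genes were 51.6%, 48.9% and 43.6%. The second list, ubiquitin and p97 genes, had 8 of 9 genes matched and tested, with 5, 3 and 5 positive and medians of 0.0448, -0.11 and 0.0242. The third list, the 8 COP9 signalosome genes, a complex built on the same plan as the lid, had 6, 5 and 6 positive and medians of 0.11, 0.0379 and 0.0556. With the length trend removed the positive counts were 9, 4 and 10 for the first list, 3, 2 and 4 for the second and 5, 5 and 7 for the third, against 53.5%, 51.1% and 47.1% of all tested genes. Sem1, which is also a lid subunit but is not caught by the naming rule, was at -0.0205 and -0.0979 in the mutants against control.

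Among them, rngo, the fly Ddi1 homologue, had 113, 145 and 131 CPM in DPLG1 mutants, 111, 137 and 167 CPM in DPLG4 mutants and 175, 171 and 191 CPM in controls. Both mutants lay below all controls, with log2 fold changes of -0.47 (SE 0.16, edgeR adjusted p = 0.276) and -0.37 (SE 0.16, edgeR adjusted p = 0.455). PI31, a regulator of the proteasome, was at 0.28 (SE 0.14, edgeR adjusted p = 0.310) in DPLG1 mutants. Its partner ntc, an F-box protein, had 41.3, 37.4 and 39.5 CPM in DPLG1 mutants and 32.7, 32.2 and 26.6 CPM in DPLG4 mutants, without overlap, a direct log2 fold change of 0.37 (SE 0.12, edgeR adjusted p = 0.387).

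The ubiquitin gene Ubi-p63E had 226, 303 and 291 CPM in DPLG1 mutants and 139, 188 and 224 CPM in DPLG4 mutants. DPLG1 replicate 22 lay just above the highest DPLG4 library, and the direct log2 fold change was 0.57 (SE 0.23, edgeR adjusted p = 0.584). Uba1, the ubiquitin-activating enzyme, was at -0.56 (SE 0.25, edgeR adjusted p = 0.293) in DPLG1 mutants, and Ubqn, a shuttle that brings ubiquitinated proteins to the proteasome, at -0.44 (SE 0.20, edgeR adjusted p = 0.297). Uba1 and Ubqn are long, with 4343 and 3429 exon bases. For both, the lowest libraries were DPLG1 mutant replicate 22 and DPLG4 mutant replicate 15. In the COP9 signalosome, CSN5 was at 0.24 (SE 0.10, edgeR adjusted p = 0.289) and CSN7 at 0.19 (SE 0.0908, edgeR adjusted p = 0.310) in DPLG1 mutants, and alien was at 0.19 (SE 0.12, edgeR adjusted p = 0.821) in the direct comparison. With the length trend removed, Uba1 was at -0.30, Ubqn at -0.26, CSN5 at 0.13 and CSN7 at 0.0750 in DPLG1 mutants. Ubi-p63E was then at 0.61 and alien at 0.22 in the direct comparison.

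The canonical genes are spread over the genome, with 4 on 2L, 10 on 2R, 5 on 3L, 9 on 3R and 4 on X. On 2L, the arm of CG12253, Prosalpha6 and Prosbeta4 were at 0.35 and 0.41 in DPLG1 mutants, and Rpn11 and Rpn3 at 0.0388 and -0.0366. On 3L, the arm of CG7492, the 5 members ran from -0.11 for Rpn1 to 0.26 for Prosbeta6 in DPLG4 mutants, and lay 7.35 to 13.9 Mb from it. Of the 32 canonical genes, 13 share exon bases with a gene on the opposite strand, most of all Rpn9 with 264, and whether the counting kept strands apart is not stated in the sources at hand.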

How the data were processed

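RNA-seq of 9 ovary libraries was analysed from counts per gene. The deposited values are raw counts, 1 file per library, made by the authors; per the submitters' processing notes the tools were FastQC, STAR 2.5, HTSeq and DESeq2, and the builds BDGP6 and GRCh37, the latter with no role given. Neither annotation release nor strand setting is stated in the sources at hand. Summary lines (11.5% to 13.8% of each total, 72.0% in control replicate 1) stayed out of library sizes and tests.

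Symbols, positions and exon lengths came from Ensembl's annotation of BDGP6 (17253 of 17559 identifiers matched). In R 4.3.3, edgeR 4.0.16 (limma 3.58.1) fitted all 9 libraries by quasi-likelihood, with group alone in the design, after TMM scaling and filterByExpr, which left 8427 of 13404 genes with any count. The biological coefficient of variation was 0.217. P-values were Benjamini-Hochberg adjusted over all 8427 genes, with a threshold of 0.05; an SE is the log2 fold change over the square root of F. The fit was tested on simulated data with 200 changed genes. Their folds were larger than those of all canonical subunits but Rpn2, and no length trend was simulated. The simulation therefore says nothing on the power for these subunits. CPM values are TMM-scaled, given as mean ± SD over 3 libraries where an SD is shown. The length trend of each library was fitted by lowess (span 0.5) on log2 CPM (prior count 0.5) without regard to group. DESeq2 1.42.0 and the scalings, filters and left-out replicates of the closing section were alternatives.

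The members and lists were chosen with earlier results of these data known. Genes given in full are those called, the 3 smallest p and the extreme log2 fold changes per comparison, the 3 highest and 3 lowest levels, the catalytic subunits, Rpn6, Rpn10 and Rpn11, paralogs with 3 counts in a library and up to 3 related genes per list. TER94, vas and nos were not matched. Sequence features and protein identity were not analysed here.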

Additional observations from a re-analysis of the deposited data

How the results depend on the processing

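No subunit gene was called in any comparison by edgeR under any alternative run; DESeq2 called 1, Prosalpha6 in DPLG1 mutants. Over all tested genes, DESeq2 called 280 (DPLG1 mutant against control), 228 (DPLG4) and 230 (direct) where edgeR called 9, 36 and 53. With only the 6 libraries compared, edgeR called 12 for DPLG4 and 29 for the direct comparison, and with the length trend removed 19, 57 and 94. Upper quartile scaling moved the DPLG1 medians to 0.30 (canonical), 0.42 (core) and 0.22 (regulatory) and the DPLG4 medians to 0.18 (canonical) and 0.11 (regulatory), while the median over all genes moved to 0.15 and 0.0882. With the length trend removed the DPLG1 medians were 0.0513, 0.15 and 0.0080, and the DPLG4 canonical median was 0.0188. Leaving out 1 replicate in turn, edgeR called 6 to 16 genes for DPLG1, 11 to 36 for DPLG4 and 24 to 51 for the direct comparison; the canonical medians ran from 0.12 to 0.17, from 0.0532 to 0.13 and from 0.0193 to 0.0530. The cause of these shifts was not tested. Of 1296 alternative values for named genes, 1240 kept their direction and side of the threshold, 2 passed it only in DESeq2 (Prosalpha6, and CG7492 in DPLG1 mutants), and 54 changed sign, with no call among them. No paired analysis was possible because the groups share fewer than 2 replicate numbers. Depth limits the paralogs: a count of 0 allows up to 0.0311 to 0.172 CPM per library, for counting error only.

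The sign changes fell on 29 of 81 pairs of gene and comparison, none with a log2 fold change beyond 0.26 in size. For DPLG1 mutant against control, upper quartile scaling gave 0.0257 for Rpn1 and 0.0139 for Prosbeta2, and removal of the length trend gave 0.0148 for Rpn1, -0.0880 for Prosbeta5, -0.0309 for Rpn10 and -0.0755 for Rpn11. For DPLG4 mutant against control, upper quartile scaling gave 0.0387 for Rpt5, 0.00786 for Rpn13 and 0.0489 for Prosbeta2, and removal of the length trend gave -0.0397 for Prosbeta5, -0.0448 for Rpn10 and -0.0365 for Rpn11. Rpn10 was there at -0.00458 with DESeq2 size factors and -0.00441 in the DESeq2 test. For the direct comparison, upper quartile scaling gave 0.0219 for Rpn5, 0.0510 for Rpn1, 0.0138 for Prosbeta5 and 0.0290 for Rpn11, and Rpn1 was at 0.00445 with no filter and 0.0307 with the length trend removed.

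Leaving out 1 replicate in turn also changed signs. For DPLG1 mutant against control, values ran from -0.211 to 0.0470 for Prosbeta2, from -0.0247 to 0.135 for Prosbeta5, from -0.257 to 0.0616 for Rpn1 and from -0.0172 to 0.286 for Ubi-p63E. For DPLG4 mutant against control they ran from -0.148 to 0.115 for Prosbeta2, from -0.0163 to 0.158 for Prosbeta5, from -0.275 to 0.0969 for Rpn1, from -0.0446 to 0.111 for Rpn10, from -0.224 to 0.0812 for Rpn13, from -0.0641 to 0.161 for alien and from -0.000117 to 0.235 for CG12253. In the direct comparison the subunit ranges were -0.0292 to 0.135 for Prosalpha2, -0.171 to 0.0138 for Prosbeta1, -0.128 to 0.0303 for Prosbeta2, -0.0636 to 0.0446 for Prosbeta5, -0.209 to 0.174 for Rpn1, -0.501 to 0.0898 for Rpn2, -0.0593 to 0.0303 for Rpn5, -0.0491 to 0.113 for Rpn10, -0.0327 to 0.0340 for Rpn11 and -0.290 to 0.00401 for Rpn13. Among related genes they were -0.0368 to 0.213 for PI31, -0.404 to 0.0457 for Uba1, -0.286 to 0.0935 for Ubqn and -0.233 to 0.0656 for rngo.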
